A study of Mus musculus with 16 samples.

Results

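The presynaptic and vesicle genes described here encode the proteins that store, dock, release and recover neurotransmitter vesicles. They were taken from a list of 38 genes. A gene counted as a member where a probe set of the array carried its symbol, which held for 37 genes of the 19505 measured, and Syt5 was not analysed here. The study gave S100a5-tauGFP mice either octanoic acid, which is a rancid-smelling fatty acid, or clean air alone as vehicle, and compared the RNA of sorted cells of the olfactory mucosa. Clariom S arrays, which hold 1 probe set for most genes, were used for 16 sorted samples.

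The 4 groups were GFP+ cells with octanoic acid, GFP- cells with octanoic acid, GFP+ cells with clean air and GFP- cells with clean air, with 4 arrays each. All 24 mice carried the reporter, were 7 to 12 weeks old and of both sexes. They stayed singly in air-flow chambers for 40 h, and the 10 s stimuli came every 20 min after the first 26 h. Each pool joined the mucosa of 3 mice, and the GFP+ and GFP- samples of a pool came from the same mice. The odor pools and the vehicle pools held different mice. The reporter limits the comparison as a model: GFP stands for S100a5, whose transcription in olfactory sensory neurons follows their activity, GFP- cells comprise every other cell of the mucosa, and no single mouse was measured.

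Olfactory sensory neurons signal to the olfactory bulb through glutamate released from axon terminals. SNARE proteins fuse the vesicle with the membrane, synaptotagmins couple fusion to calcium, active zone proteins hold vesicles at the release site, and endocytic proteins recover them. The cell bodies, which the mucosa holds, contain the transcripts, while most of the proteins act in the axon terminals.

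Values are log2 signals, and differences are GFP+ minus GFP- of the same pool, with the SD over 4 pools. The background is the median signal of 5222 negative controls, 6.20, and their 95th percentile was 10.4, so a signal over the median is not proof of expression. Of the 37 members 33 had a mean above the background in GFP+ cells with octanoic acid, 34 in GFP- cells with octanoic acid, 34 in GFP+ cells with clean air and 33 in GFP- cells with clean air. In each group 23 were above the 95th percentile of the controls. Syt2, Syt13 and Slc17a7 lay under the background in all 4 groups. Rab3c and Cplx1 lay under it, or above it by less than their SD, in 3 groups each. The text gives no fold for these 5 genes, and the plots of all 37 members show them near the background.

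The sort was checked on marker genes. S100a5 was higher in GFP+ cells by 1.53 ± 0.52 with octanoic acid and by 1.32 ± 0.22 with clean air (SD, n = 4 each), which the gate itself fixes. Omp, the marker of mature olfactory neurons, had means between 18.67 and 18.84 in all 4 groups and differed by 0.17 ± 0.10 with octanoic acid and 0.13 ± 0.17 with clean air, so both sorted samples held mature neurons. Of 12 mature neuron markers 1 was higher with each treatment, with list medians of 0.19 for octanoic acid and 0.23 for clean air. All 12 leukocyte markers were lower in GFP+ cells, with medians of -5.85 and -5.31, and 8 and 7 of 13 immature neuron markers were lower, with medians of -0.82 and -0.57. Of 10 microvillous and tuft cell markers 8 were lower with octanoic acid and 10 with clean air, with medians of -1.90 and -2.32. Of 6 Bowman gland markers 4 were lower with each treatment and 1 was higher with octanoic acid, with medians of -1.65 and -1.91. Of 7 progenitor and basal cell markers 4 were lower with each treatment (medians -0.85 and -0.96), and of 8 sustentacular cell markers 3 were lower with octanoic acid and 2 with clean air (medians -0.74 and -0.93). Of 9 markers of neuroendocrine and other neurons 1 was higher with each treatment and 1 lower with octanoic acid, with medians of 0.40 and 0.34. In each group 3 or 4 of these 9 lay at the background. Of 5 ensheathing glia markers 1 was lower with each treatment (medians -0.13 and 0.16). Of 7 endothelial, pericyte and fibroblast markers 1 was lower with octanoic acid (median 0.02 with each treatment). The mean of the leukocyte markers was 6.11 to 7.24 on GFP+ arrays and 11.24 to 13.14 on GFP- arrays with octanoic acid, against 6.06 to 7.06 and 11.07 to 12.27 with clean air. In GFP+ cells 7 of the 12 with octanoic acid and 6 with clean air lay at the background, with Cd52, Cd53, Itgam, Tyrobp and Fcer1g among them in both. The part of these cell types in the differences below was not tested. In sorted samples of this kind fewer cells of a type and less RNA per cell cannot be told apart.

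The GFP+ array of odor pool 3 stood apart from the other arrays. Its mean correlation with the arrays of its group over all genes was 0.976, against 0.986 for each of the other 3, and its mean over 8 sustentacular cell markers was 10.17, against 7.86 to 8.33 on the other GFP+ arrays with octanoic acid. It gave the lowest value of its group for 25 of 37 members, 67.6%, against 37.0% of all genes. Snap25, a SNARE protein of the presynaptic membrane, read 14.46 there against 16.12 to 16.34 on the other 3 arrays. The GFP+ array of vehicle pool 2 was the lowest of its group for 19 members, 51.4%, against 25.4% of all genes. Among GFP- arrays that of vehicle pool 2 was the lowest for 15 members, 40.5%, against 20.2% of all genes. That of vehicle pool 4 was the lowest for 14 members, 37.8%, against 32.9%. That of odor pool 2 was the lowest for 14 members, 37.8%, against 25.4%. A low GFP- value raises the difference of its pool, and a low GFP+ value reduces it. Counts without odor pool 3 and vehicle pool 4, whose GFP- array correlated lowest with its group, are given beside the results.

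A set of presynaptic genes had a higher signal in GFP+ samples than in GFP- samples of the same pools. With octanoic acid 4 of the 37 members were higher at an adjusted p under 0.05 in limma with Benjamini-Hochberg adjustment over all genes: the synaptotagmin Syt4, the synapsins Syn2 and Syn3, and the active zone scaffold Rims1. They make 10.8% of the members, where 6.26% of all genes were higher. With clean air 10 members were higher, 27.0% against 5.83% of all genes: Syt4, Syn1, Syn2, Sv2b, Sv2c, Nsf, Rims1, Bsn, Cplx2 and Dnm1. No member was lower with either treatment, while 10.9% of all genes were lower with octanoic acid and 9.58% with clean air. At an unadjusted p under 0.05, in either direction, stood 14 members with octanoic acid and 16 with clean air. Of all 19505 genes 5918 and 5321 met this limit. Syt4, Syn2 and Rims1 passed with both treatments and 11 members with at least 1. The members were chosen with earlier results of these data known, so the shares here and below are not independent of that choice.

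The size of these differences was modest. The members' median was 0.25 with octanoic acid and 0.32 with clean air, beside 0.11 for all genes with each treatment, and the 32 members above the background by more than their SD in every group ran from -0.43 to 1.09 and from -0.07 to 1.16. Among the 23 members above the 95th percentile of the controls in all groups 3 were higher with octanoic acid, 13.0% where 4.92% of equally bright genes were, and 7 with clean air, 30.4% where 6.88% were. None of the 23 was lower, while 6.13% of equally bright genes were lower with octanoic acid and 4.41% with clean air. GFP+ was higher in all 4 pools for 17 members with octanoic acid, beside 19.2% of all genes, and for 21 members with clean air, beside 23.5% of all genes. Of the members 12 were higher in 8 of 8 pools, 32.4% against 8.79% of all genes. They are Syt1, Syt4, Syn1, Syn2, Syn3, Sv2b, Sv2c, Bsn, Unc13a, Slc17a6, Dnm1 and Amph.

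The counts depended on scaling and on single pools. With the mean of the 12 mature neuron markers set equal on all arrays, which moved the median of all genes to -0.10 with each treatment, 2 members were higher (Syt4 and Syn2) and 2 lower (Rab3b and Rab3c) with octanoic acid, and 5 were higher (Syt4, Syn1, Syn2, Sv2b and Bsn) and 1 lower (Rab3c) with clean air. The members' median was then 0.045 with octanoic acid and 0.113 with clean air. Of all 19505 genes 516 were then higher and 2896 lower with octanoic acid, and 563 and 2468 with clean air. With the medians of the arrays set equal, which moved the median of all genes to 0.42 with octanoic acid and 0.38 with clean air, 24 and 23 members were higher and none was lower. The members' median was then 0.557 and 0.592. Of all genes 7791 and 6082 were then higher, against 1221 and 1138 on the values as deposited. Without odor pool 1 or without odor pool 4 the count of higher members with octanoic acid was 2, beside 874 and 621 of all genes. Without vehicle pool 2, 3 or 4 the count with clean air was 6, beside 725, 788 and 619 of all genes. Without odor pool 3 and vehicle pool 4 the count was 4 with octanoic acid and 7 with clean air, beside 821 and 681 of all genes.

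**Figure D1:**
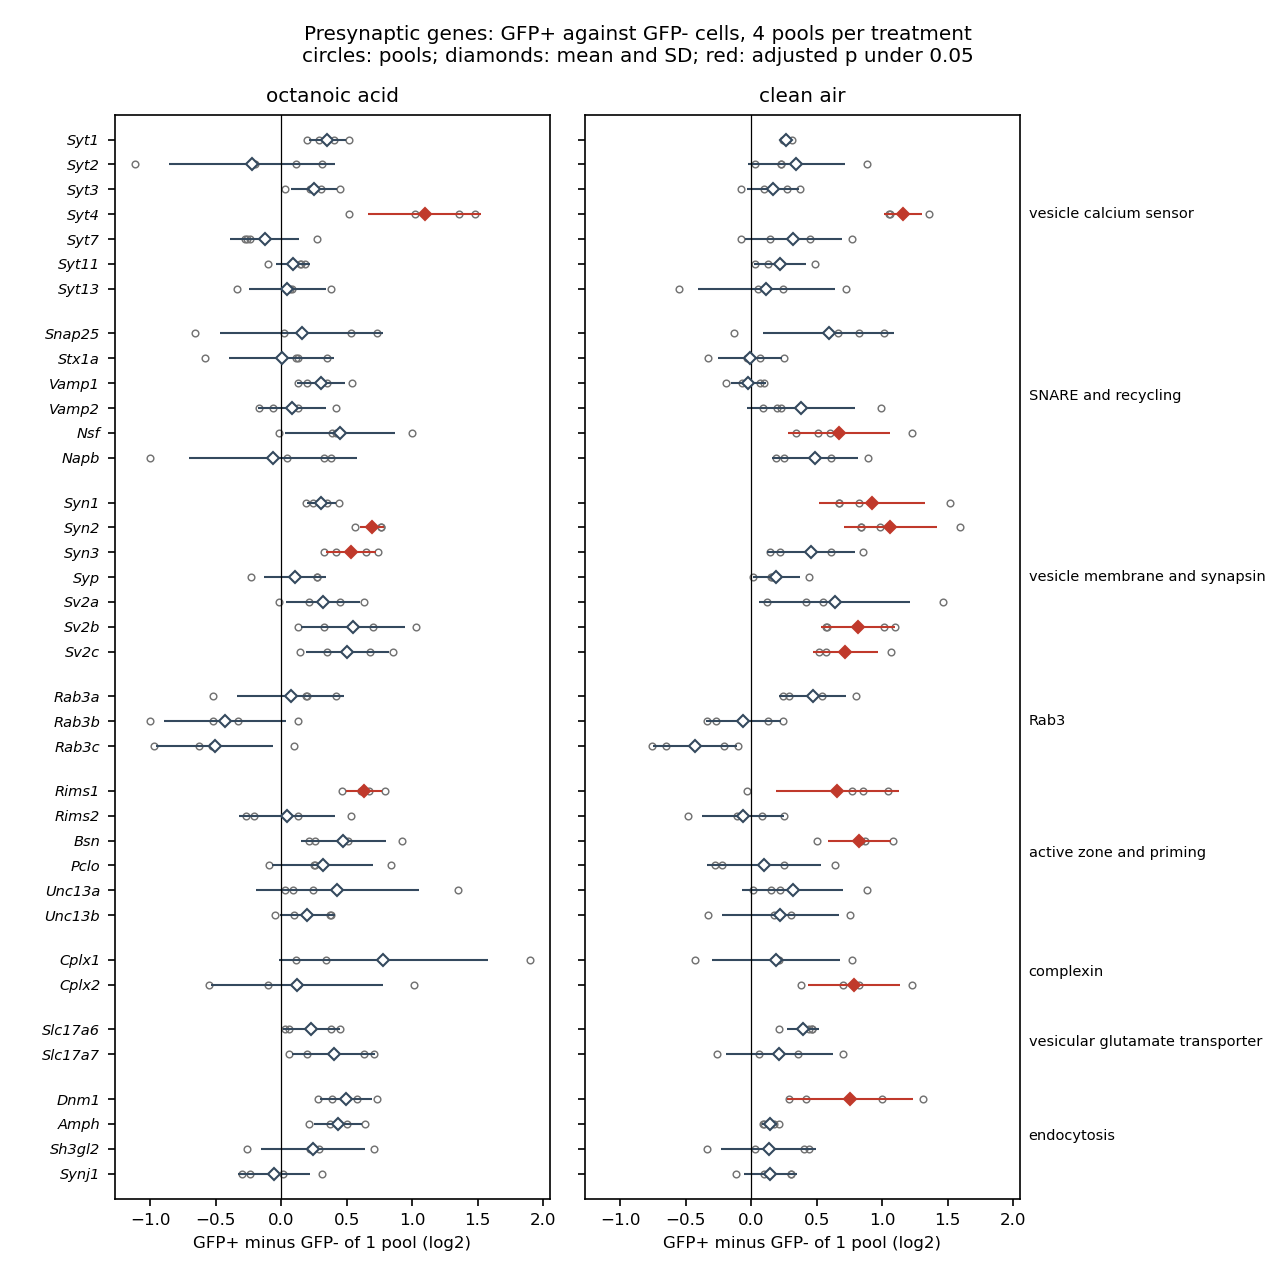
GFP+ minus GFP- log2 signal of the 37 members by role, with octanoic acid on the left and clean air on the right. Circles are the 4 pools, diamonds the mean with the SD, and red marks an adjusted p under 0.05 in limma: 4 members with octanoic acid and 10 with clean air, all to the right of 0.

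Among the synaptotagmins Syt4, an atypical one also found on secretory organelles of the cell body, had the largest difference of all members with both treatments. It read 12.26, 12.86, 12.07 and 12.97 in GFP+ cells with octanoic acid, against 11.25, 11.37, 11.55 and 11.61 in GFP- cells of the same pools. With clean air it read 12.69, 13.00, 12.50 and 12.57 in GFP+ cells, against 11.53, 11.64, 11.45 and 11.51 in GFP- cells. Every GFP+ array lay above every GFP- array of its treatment, and the smallest gap within a pool was that of odor pool 3. Syt4 was higher by 1.09 ± 0.43 with octanoic acid (SD, n = 4; 2.14-fold; limma adjusted p = 0.000818) and by 1.16 ± 0.14 with clean air (2.23-fold; limma adjusted p = 0.00058). It passed under each of the 18 alternative settings with both treatments.

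The other synaptotagmins among the members that were measured above background did not pass. Syt1, the fast calcium sensor of synaptic release, was higher in 8 of 8 pools, by 0.35 ± 0.14 with octanoic acid (limma adjusted p = 0.0989) and 0.27 ± 0.03 with clean air (limma adjusted p = 0.228; SD, n = 4 each). Its GFP+ arrays with clean air, 15.29 to 15.52, did not overlap the GFP- arrays, 15.04 to 15.28, while those with octanoic acid overlapped. Syt7, a slow calcium sensor, gave -0.13 ± 0.27 with octanoic acid and 0.32 ± 0.37 with clean air. Syt3 gave 0.25 ± 0.17 and 0.16 ± 0.20, and Syt11, a synaptotagmin that does not bind calcium, 0.09 ± 0.13 and 0.22 ± 0.20.

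The SNARE proteins among the members did not pass. Snap25 ran from 14.46 to 16.34 in GFP+ cells and 15.13 to 16.33 in GFP- cells with octanoic acid, a difference of 0.15 ± 0.62. With clean air it ran from 15.78 to 16.55 in GFP+ cells and 14.77 to 15.92 in GFP- cells, a difference of 0.59 ± 0.50 (limma adjusted p = 0.139; SD, n = 4). The groups overlapped with both treatments. Stx1a, the syntaxin of the presynaptic membrane, gave 0.00 ± 0.40 and -0.01 ± 0.24, Vamp1 0.30 ± 0.18 and -0.02 ± 0.14, and Vamp2, the main vesicle SNARE, 0.08 ± 0.26 and 0.38 ± 0.41, each with octanoic acid and then clean air.

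Nsf, the ATPase that takes spent SNARE complexes apart, was higher with clean air. It read 13.67, 13.84, 13.50 and 13.79 in GFP+ cells with clean air, against 13.16, 13.24, 13.16 and 12.56 in GFP- cells. All GFP+ values lay above all GFP- values, and the GFP- array of vehicle pool 4 was the lowest. The difference was 0.67 ± 0.39 (SD, n = 4; 1.59-fold; limma adjusted p = 0.0384), and the call was lost without any 1 of the 4 vehicle pools and without odor pool 1 or 4, with adjusted p between 0.0507 and 0.202. With octanoic acid Nsf read 13.63, 13.85, 13.16 and 13.66 in GFP+ cells, against 13.21, 12.86, 13.17 and 13.27 in GFP- cells. That difference, 0.45 ± 0.42, was positive in 3 of 4 pools and did not pass. Napb, which recruits Nsf to SNARE complexes, gave -0.06 ± 0.64 with octanoic acid and 0.49 ± 0.33 with clean air.

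Of the synapsins, phosphoproteins that tether vesicles in the reserve pool, 2 of 3 were higher with each treatment, and each of the 3 genes lay higher in GFP+ cells in 8 of 8 pools. Promoter sequences of RefSeq (GRCm38.p6), from 250 bases before to 50 after the annotated start, were matched for 30 of the 37 members, with 39 windows in all because some genes have several starts. Those of Syn2, at its first listed start, and Rims1 are shown as examples of genes that passed with both treatments. Those of Syn1 and Sh3gl2 are shown because they alone among the 30 genes hold the exact letters of the full cyclic AMP response element. This element is a binding site of the activity-regulated factor CREB, and variants of it were not searched. Sequences run 5′ to 3′ on the strand of the gene, and capitals mark the letters TGACGTCA, the element, and GGGCGG on either strand, the GC box. Of the other genes that passed, Nsf, Bsn and Cplx2 have a window with neither motif, and Syt4 and Syn3 have no window. The second window of Syn2 and all windows of Sv2b but the first also have neither motif. In Sh3gl2 a GC box on the other strand ends where the element begins.
Syn1 promoter, chrX:20920869-20921168, minus strand: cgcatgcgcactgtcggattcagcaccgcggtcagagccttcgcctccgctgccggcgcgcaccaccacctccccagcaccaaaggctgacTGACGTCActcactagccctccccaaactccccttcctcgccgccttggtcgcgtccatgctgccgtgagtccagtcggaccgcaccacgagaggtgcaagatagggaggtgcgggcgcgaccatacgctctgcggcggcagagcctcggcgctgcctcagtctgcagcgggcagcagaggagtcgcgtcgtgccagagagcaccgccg
Syn2 promoter, chr6:115134652-115134951, plus strand: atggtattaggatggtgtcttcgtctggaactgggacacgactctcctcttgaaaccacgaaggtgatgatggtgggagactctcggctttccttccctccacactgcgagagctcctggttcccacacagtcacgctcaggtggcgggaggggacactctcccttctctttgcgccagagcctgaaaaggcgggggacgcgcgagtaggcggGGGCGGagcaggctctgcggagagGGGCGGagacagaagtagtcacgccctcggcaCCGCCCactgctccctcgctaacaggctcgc
Rims1 promoter, chr1:22806109-22806408, minus strand: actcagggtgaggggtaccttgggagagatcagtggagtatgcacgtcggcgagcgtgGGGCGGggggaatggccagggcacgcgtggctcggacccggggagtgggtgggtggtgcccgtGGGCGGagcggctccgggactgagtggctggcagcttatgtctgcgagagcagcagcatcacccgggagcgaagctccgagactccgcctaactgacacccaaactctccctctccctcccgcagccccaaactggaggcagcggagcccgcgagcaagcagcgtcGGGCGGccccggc
Sh3gl2 promoter, chr4:85205206-85205505, plus strand: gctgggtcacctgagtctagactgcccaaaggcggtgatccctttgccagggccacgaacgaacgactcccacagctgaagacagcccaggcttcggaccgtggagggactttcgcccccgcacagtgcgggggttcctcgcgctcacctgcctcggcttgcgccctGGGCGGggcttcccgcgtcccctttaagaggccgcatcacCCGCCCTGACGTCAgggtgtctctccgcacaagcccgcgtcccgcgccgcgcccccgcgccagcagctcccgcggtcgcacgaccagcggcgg

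The element TGACGTCA, a palindrome, was found for 2 of the 30 genes with a window, 6.67%, against 2.03% of 27025 genes, a gene being counted where any of its windows held the letters. It begins 159 bases before the start of Syn1 and 37 bases before that of Sh3gl2, and of these genes Syn1 passed with clean air and Sh3gl2 with neither treatment. The GC box was found for 23 of the 30 genes, 76.7%, against 38.2% of all genes, and the median GC content of the first listed window was 62.2% for the members and 52.7% for all. TATAAA was found for Sv2b and Rab3b, 6.67% of the genes against 15.7%. Searched on both strands, TCCCNNGGGA, a core letter pattern of the olfactory neuron factor EBF, and AGCACCNNGGACAG, a core of the element bound by the repressor REST, were found for none of the 30 genes and for 1.06% and 0.0592% of all genes.

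The EBF and REST patterns were searched as exact letters only, so their absence does not show that the promoters lack such sites. The Syn1 window holds letters that differ from the REST pattern at a single fixed position. Syn1, the promoter of which opens the set above, read 11.78, 11.56, 10.66 and 11.36 in GFP+ cells with octanoic acid, against 11.44, 11.12, 10.47 and 11.12 in GFP- cells. In the vehicle pools it read 11.83, 11.35, 11.70 and 11.41 in GFP+ cells, against 11.01, 10.68, 11.04 and 9.88 in GFP- cells. With clean air the groups did not overlap, and with octanoic acid they did, although each pool had GFP+ higher. The difference with clean air was 0.92 ± 0.41 (SD, n = 4; 1.89-fold; limma adjusted p = 0.00246), and with octanoic acid it was 0.30 ± 0.11 (limma adjusted p = 0.253).

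Syn2 read 14.07, 14.15, 13.85 and 14.07 in GFP+ cells with octanoic acid, against 13.38, 13.39, 13.29 and 13.32 in GFP- cells. Clean air gave 14.23, 13.84, 14.31 and 14.22 in GFP+ cells, against 13.39, 12.87, 13.46 and 12.63 in GFP- cells. The groups did not overlap with either treatment, and the odor pools lay closer together than the vehicle pools. Syn2 was higher by 0.69 ± 0.09 with octanoic acid (SD, n = 4; 1.61-fold; limma adjusted p = 0.011) and by 1.06 ± 0.36 with clean air (2.09-fold; limma adjusted p = 0.000596), and it passed under all 18 alternative settings with both treatments.

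Syn3 read 12.67, 12.18, 12.21 and 12.55 in GFP+ cells with octanoic acid, against 12.02, 11.84, 11.79 and 11.81 in GFP- cells. The clean air arrays read 12.40, 12.24, 12.68 and 12.74 in GFP+ cells, against 11.78, 12.10, 11.84 and 12.52 in GFP- cells. Only the octanoic acid groups did not overlap. The difference was 0.53 ± 0.19 with octanoic acid (SD, n = 4; 1.45-fold; limma adjusted p = 0.0429) and 0.46 ± 0.33 with clean air (limma adjusted p = 0.0882). The first call held in 5 of 18 alternative settings and was lost without any 1 of the odor pools and without vehicle pool 1, 2 or 4, with adjusted p between 0.0502 and 0.17.

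Of the SV2 glycoproteins, vesicle membrane proteins that regulate release readiness, 2 of 3 were higher with clean air and none with octanoic acid. Sv2b read 12.43, 12.27, 11.85 and 12.26 in GFP+ cells with octanoic acid, against 12.10, 11.23, 11.72 and 11.56 in GFP- cells. For clean air the arrays read 12.42, 12.24, 12.18 and 12.74 in GFP+ cells, against 11.85, 11.23, 11.60 and 11.63 in GFP- cells. The groups overlapped with octanoic acid and did not with clean air. Sv2b was higher by 0.82 ± 0.28 with clean air (SD, n = 4; 1.76-fold; limma adjusted p = 0.00832; 0.0554 without vehicle pool 4) and gave 0.55 ± 0.40 with octanoic acid (limma adjusted p = 0.0588).

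Sv2c read 12.08, 11.94, 11.89 and 11.91 in GFP+ cells with octanoic acid, against 11.73, 11.09, 11.20 and 11.77 in GFP- cells. With clean air it read 12.12, 11.87, 12.57 and 12.53 in GFP+ cells, against 11.60, 11.15, 11.50 and 11.96 in GFP- cells. Here the octanoic acid groups did not overlap and the clean air groups did. The differences were 0.51 ± 0.32 with octanoic acid (SD, n = 4; limma adjusted p = 0.0591) and 0.72 ± 0.25 with clean air (1.65-fold; limma adjusted p = 0.0109; 0.0697 without vehicle pool 3).

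Sv2a, the third SV2 gene, read 11.44, 11.43, 11.91 and 11.78 in GFP+ cells with octanoic acid, against 11.23, 11.46, 11.46 and 11.15 in GFP- cells. In the vehicle pools it read 11.59, 11.44, 11.72 and 11.72 in GFP+ cells, against 11.47, 10.89, 11.30 and 10.27 in GFP- cells. Its groups overlapped, and its difference of 0.64 ± 0.58 with clean air (limma adjusted p = 0.0661; SD, n = 4) drew most from vehicle pool 4. Syp, synaptophysin, an abundant vesicle membrane protein, gave 0.10 ± 0.24 with octanoic acid and 0.19 ± 0.18 with clean air, with all 16 arrays between 17.09 and 17.59.

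Among the members the Rab3 GTPases, which mark vesicles for docking, did not pass. Rab3a was positive in 4 of 4 vehicle pools, 0.47 ± 0.26 (limma adjusted p = 0.112; SD, n = 4), with GFP+ arrays of 15.43 to 15.62 above GFP- arrays of 14.67 to 15.32, and gave 0.07 ± 0.41 with octanoic acid. Rab3b gave -0.43 ± 0.47 with octanoic acid and -0.06 ± 0.29 with clean air. Rab3c, near the background, read 5.74 to 6.41 in GFP+ cells and 6.01 to 7.08 in GFP- cells over both treatments and was lower in GFP+ cells in all 4 vehicle pools.

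At the active zone Rims1, a scaffold that binds Rab3 and calcium channels, passed with both treatments. It read 10.29, 10.32, 9.80 and 10.21 in GFP+ cells with octanoic acid, against 9.82, 9.71, 9.0 and 9.54 in GFP- cells. Clean air gave 10.64, 9.67, 10.34 and 10.11 in GFP+ cells, against 9.60, 8.90, 9.48 and 10.14 in GFP- cells. The groups overlapped in both cases, although GFP+ was the higher sample in every pool but vehicle pool 4. Rims1 was higher by 0.64 ± 0.14 with octanoic acid in 4 of 4 pools (SD, n = 4; 1.55-fold; limma adjusted p = 0.0323) and by 0.66 ± 0.47 with clean air in 3 of 4 pools (1.58-fold; limma adjusted p = 0.0287). The first call was lost without any 1 of the odor pools, with adjusted p between 0.0608 and 0.105, and the second without vehicle pool 1, 2 or 3, with adjusted p between 0.112 and 0.146.

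Rims2, the paralog of Rims1, read 9.73, 9.83, 9.51 and 9.95 in GFP+ cells with octanoic acid, against 10.00, 9.70, 9.72 and 9.42 in GFP- cells. The clean air arrays read 10.05, 9.15, 9.77 and 10.05 in GFP+ cells, against 9.97, 9.63, 9.88 and 9.80 in GFP- cells. The groups overlapped, and the differences were 0.04 ± 0.37 with octanoic acid and -0.07 ± 0.32 with clean air (SD, n = 4 each).

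Bsn, bassoon, a giant scaffold of the active zone, read 8.53, 8.29, 8.81 and 8.40 in GFP+ cells with octanoic acid, against 8.32, 7.78, 7.89 and 8.14 in GFP- cells. For clean air the arrays read 8.45, 8.27, 9.05 and 8.97 in GFP+ cells, against 7.94, 7.43, 8.17 and 7.89 in GFP- cells. Only the clean air groups did not overlap. Bsn was higher by 0.82 ± 0.24 with clean air (SD, n = 4; 1.77-fold; limma adjusted p = 0.00454), under all 18 alternative settings, and gave 0.47 ± 0.32 with octanoic acid, positive in 4 of 4 pools (limma adjusted p = 0.0755).

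Pclo, piccolo, the paralog of Bsn, read 12.73, 12.69, 13.59 and 12.56 in GFP+ cells with octanoic acid, against 12.48, 12.44, 12.75 and 12.65 in GFP- cells. With clean air it read 12.24, 12.46, 13.60 and 13.56 in GFP+ cells, against 11.99, 12.75, 12.96 and 13.79 in GFP- cells. Its values varied more between pools than between the sorted samples, and it gave 0.32 ± 0.39 and 0.10 ± 0.43. Of the priming factors Unc13a gave 0.42 ± 0.62 with octanoic acid and 0.32 ± 0.39 with clean air, positive in 8 of 8 pools, and Unc13b 0.20 ± 0.21 and 0.22 ± 0.45.

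The complexins clamp and promote fusion of the assembled SNARE complex. Cplx2 read 9.93, 10.22, 8.55 and 9.76 in GFP+ cells with octanoic acid, against 10.03, 9.21, 9.09 and 9.62 in GFP- cells. In the vehicle pools it read 10.17, 9.81, 10.05 and 9.93 in GFP+ cells, against 9.47, 8.99, 9.67 and 8.70 in GFP- cells. The clean air groups did not overlap, and with octanoic acid the array of pool 3 was the lowest of all 16. Cplx2 was higher by 0.78 ± 0.35 with clean air (SD, n = 4; 1.72-fold; limma adjusted p = 0.0406) and gave 0.12 ± 0.65 with octanoic acid. The call was lost without any 1 of the 4 vehicle pools and without odor pool 1 or 4, with adjusted p between 0.05 and 0.196.

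Cplx1 read 6.59, 6.61, 7.64 and 7.63 in GFP+ cells with octanoic acid, against 6.25, 6.50, 6.87 and 5.73 in GFP- cells. Clean air gave 5.99, 6.73, 6.52 and 6.10 in GFP+ cells, against 5.78, 5.95, 6.31 and 6.53 in GFP- cells. Pools 3 and 4 with octanoic acid gave the only values over 7 among the 16 arrays.

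The vesicular glutamate transporter Slc17a6, which loads the transmitter of these neurons, was positive in 8 of 8 pools and did not pass, with 0.23 ± 0.21 for octanoic acid (limma adjusted p = 0.315) and 0.39 ± 0.12 for clean air (limma adjusted p = 0.0957; SD, n = 4 each). Its GFP+ arrays with clean air, 15.41 to 15.54, lay above the GFP- arrays, 14.97 to 15.34.

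Of the endocytic proteins Dnm1, the neuronal dynamin that cuts vesicles from the membrane, read 13.32, 13.39, 13.12 and 13.09 in GFP+ cells with octanoic acid, against 12.74, 12.66, 12.84 and 12.71 in GFP- cells. The clean air arrays read 13.07, 13.01, 12.88 and 13.09 in GFP+ cells, against 12.66, 12.02, 12.59 and 11.79 in GFP- cells. The groups did not overlap with either treatment, and GFP- arrays of vehicle pools 2 and 4 were the lowest. Dnm1 was higher by 0.75 ± 0.48 with clean air (SD, n = 4; 1.68-fold; limma adjusted p = 0.0167; 0.0887 without vehicle pool 2 and 0.104 without vehicle pool 4) and gave 0.49 ± 0.20 with octanoic acid (limma adjusted p = 0.0969). Amph, amphiphysin, which recruits dynamin, gave 0.43 ± 0.18 with octanoic acid (limma adjusted p = 0.0543) and 0.15 ± 0.06 with clean air, positive in 8 of 8 pools. Sh3gl2, endophilin A1, gave 0.24 ± 0.40 and 0.13 ± 0.36, and Synj1, the lipid phosphatase that uncoats vesicles, -0.05 ± 0.28 and 0.14 ± 0.20.

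Over the whole list the GFP+ and GFP- arrays did not overlap for 5 members with octanoic acid (Syt4, Syn2, Syn3, Sv2c and Dnm1), all higher in GFP+ cells, beside 7.25% of all genes. With clean air this held for 12 members, all higher, beside 9.82% of all genes.

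**Figure D2:**
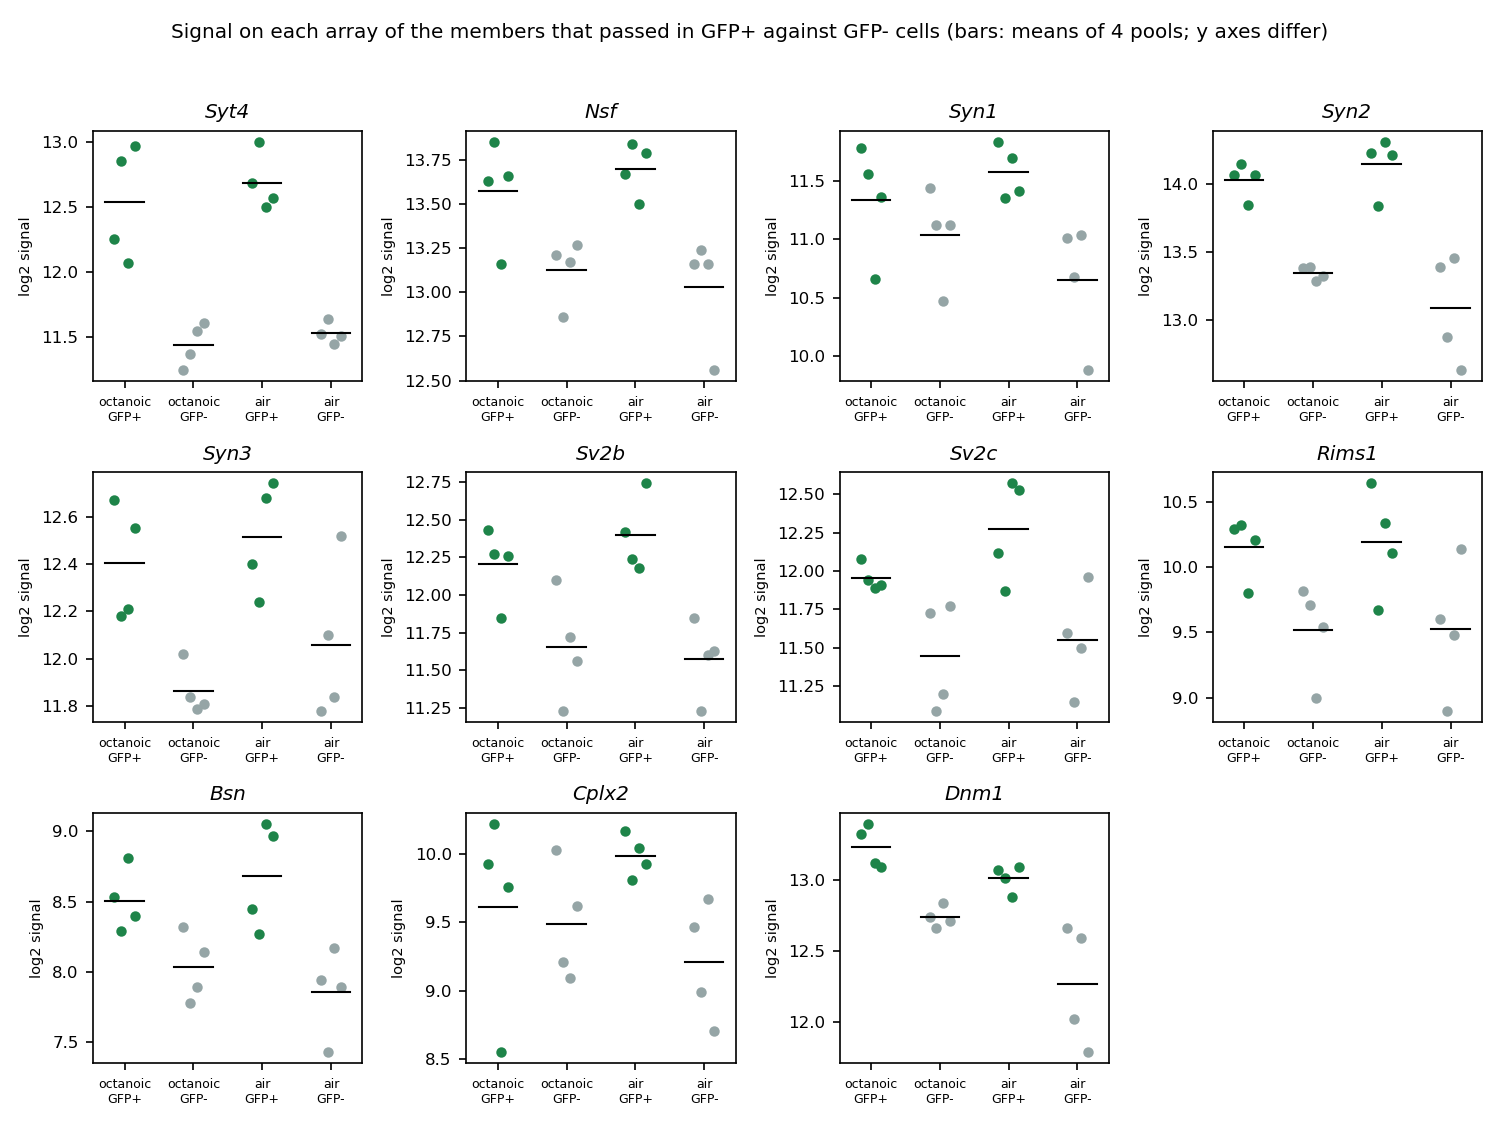
Log2 signal on each of the 16 arrays for the 11 members that passed in at least 1 treatment, with GFP+ cells in green left of GFP- cells in grey, octanoic acid before clean air, and bars at the means of 4 pools. Each panel has its own axis, so heights are not comparable between genes. Syt4, Syn2 and Dnm1 separate the sorted samples with both treatments.

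A wider list of 102 presynaptic genes, of which 95 were measured, had shares of calls nearer to those of all genes. Octanoic acid gave 6 genes higher in GFP+ cells, 6.32% beside 6.26% of all genes, and 10 lower, 10.5% beside 10.9%. Clean air gave 9 higher, 9.47% beside 5.83% of all genes, and 7 lower, 7.37% beside 9.58%. The list's median was 0.09 with octanoic acid and 0.10 with clean air, where that of all genes was 0.11. All 6 that were higher with octanoic acid were among the 9 with clean air: Syt9, Syt10, Syngr1, Apba1, Pacsin1 and Scamp5. Syngr1, synaptogyrin, a vesicle membrane protein, was higher by 1.31 ± 0.16 with octanoic acid and 1.28 ± 0.36 with clean air (SD, n = 4 each). Pacsin1, an endocytic adaptor of neurons, was higher by 0.70 ± 0.09 and 1.09 ± 0.48, Apba1, the Munc18 interactor Mint1, by 0.55 ± 0.18 and 1.01 ± 0.35, and Syt10 by 0.72 ± 0.54 and 0.73 ± 0.31. Scamp5 was among the largest with octanoic acid, 0.64 ± 0.27, and Cend1 with clean air, 0.70 ± 0.33.

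The wider genes that were lower include exocytosis proteins of non-neuronal cells. Stxbp2, a Munc18 protein of leukocyte and epithelial secretion, had means of 5.92 in GFP+ cells and 10.02 in GFP- cells with octanoic acid, and 6.34 and 9.59 with clean air. With GFP+ values under the background raised to it the differences were -3.80 and -3.18, which are bounds. Rab27a, a GTPase of secretory granules, gave bounds of -3.70 with octanoic acid and -3.41 with clean air, and Cadps2, a priming factor of dense-core vesicles, a bound of -3.06 with octanoic acid and a difference of -2.62 ± 0.31 with clean air. Syngr2, a synaptogyrin of many tissues, gave -2.36 ± 0.34 with octanoic acid and -2.11 ± 0.62 with clean air, and Snap23, the widely expressed relative of Snap25, -2.20 ± 0.54 and -1.92 ± 0.69 (SD, n = 4 each). These genes moved in the same direction as the leukocyte markers. The medians of the immature neuron, progenitor and basal cell, microvillous and tuft cell, Bowman gland and sustentacular cell markers were also negative with both treatments. The part of these cell types in the lower genes was not tested.

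Octanoic acid against clean air gave no call. In limma with Benjamini-Hochberg adjustment no member and no gene of the 19505 passed for the odor effect on the GFP+ against GFP- difference, within GFP+ cells or within GFP- cells, so 0.0% of all genes were called, and the smallest adjusted p of a member was 0.94, 0.955 and 0.985 in these comparisons. At an unadjusted p under 0.05 stood 1 member each, and 871, 716 and 741 of all genes. The unadjusted 95% intervals of the 32 members above the background ran from -1.38 to 0.83 for the odor effect on the difference, from -1.07 to 0.70 in GFP+ cells and from -0.97 to 1.02 in GFP- cells, so that changes of about 2-fold are within the intervals of several genes.

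For the odor effect on the difference the smallest p values belonged to Syn1, Cplx2 and Syt7. Syn1 had a within-pool difference of 0.35, 0.44, 0.19 and 0.24 in the octanoic acid pools, against 0.82, 0.67, 0.67 and 1.52 in the clean air pools, without overlap. The effect was -0.62 (95% interval -1.14 to -0.09; limma adjusted p = 0.94). Cplx2 gave -0.66 (-1.38 to 0.06) and Syt7 -0.45 (-0.99 to 0.09). The pools of the 2 treatments also did not overlap for Vamp1, higher with octanoic acid, beside 1.05% of all genes, and for Syn2, lower like Syn1, beside 1.49% of all genes. The comparisons of the sorted samples share their arrays with this one.

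Within GFP+ cells the smallest p belonged to Cplx1 (limma adjusted p = 0.955), whose values are given above. It lay at the background with clean air, so no fold is given. Amph read 11.53, 11.22, 11.51 and 11.37 with octanoic acid, against 11.21, 10.95, 11.10 and 11.08 with clean air, a difference of 0.32 (-0.01 to 0.66). Unc13b read 8.59, 8.32, 8.31 and 8.46 with octanoic acid, against 9.01, 8.64, 8.68 and 8.68 with clean air, a difference of -0.34 (-0.68 to 0.01). The values of Amph, Dnm1 and Unc13b did not overlap between treatments, Amph and Dnm1 being higher, beside 1.24% of all genes, and Unc13b lower, beside 1.05%.

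Of the 37 members 29 had a lower mean in GFP+ cells with octanoic acid and 8 a higher one, with a median of -0.11 beside -0.01 for all genes. Without odor pool 3 the median was -0.004, and without odor pool 3 and vehicle pool 4 it was 0.009. The median of the list thus rested on odor pool 3, whose GFP+ array is described above.

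Within GFP- cells Dnm1 gave 0.48 (95% interval 0.01 to 0.94; limma adjusted p = 0.985), the 4 octanoic acid arrays lying above the 4 clean air arrays, beside 1.17% of all genes. Syt7 read 13.82, 13.95, 13.76 and 13.64 with octanoic acid, against 13.53, 13.38, 13.89 and 13.02 with clean air, a difference of 0.34 (-0.09 to 0.77). Vamp1 read 12.16, 11.88, 12.17 and 11.83 with octanoic acid, against 12.44, 12.06, 12.24 and 12.43 with clean air, a difference of -0.28 (-0.64 to 0.09). In both the treatments overlapped. Of the members 22 had a higher mean with octanoic acid and 15 a lower one.

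**Figure D3:**
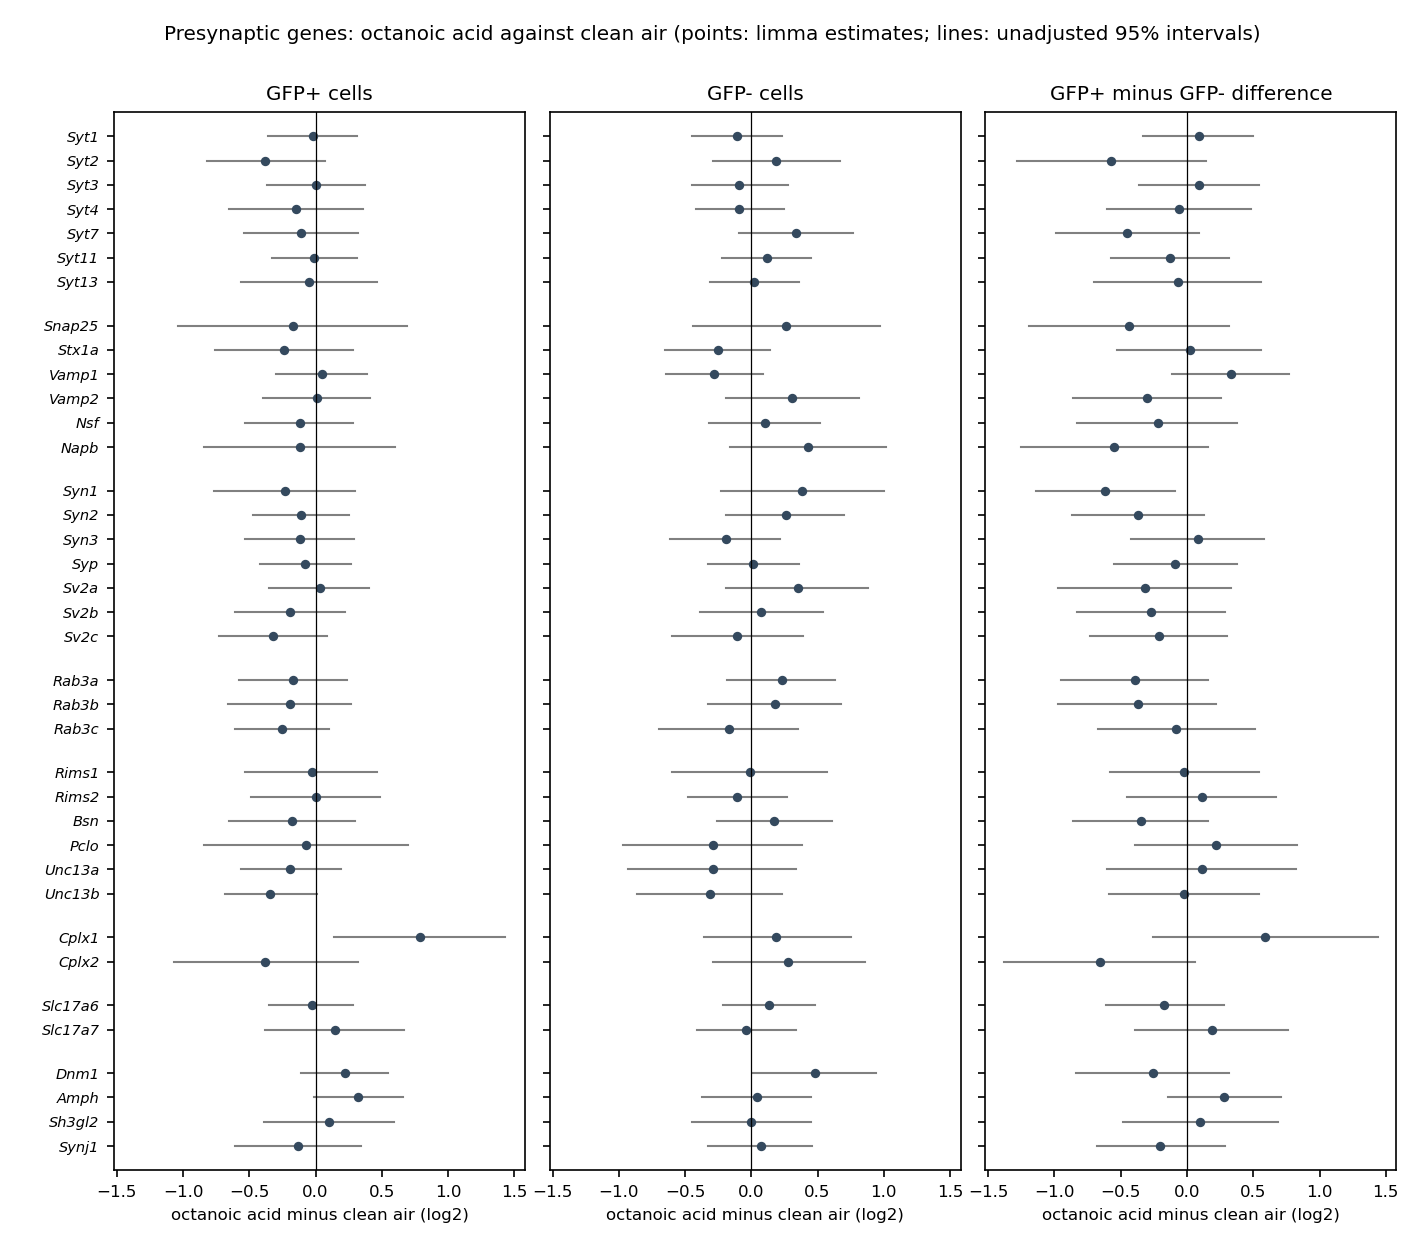
Octanoic acid minus clean air for each of the 37 members in GFP+ cells, in GFP- cells and for the GFP+ minus GFP- difference, as limma estimates (points) with unadjusted 95% intervals (lines) on the log2 scale. 1 interval in each panel leaves out 0: Cplx1 in GFP+ cells, which lay at the background with clean air, Dnm1 in GFP- cells and Syn1 for the difference.

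**Figure D4:**
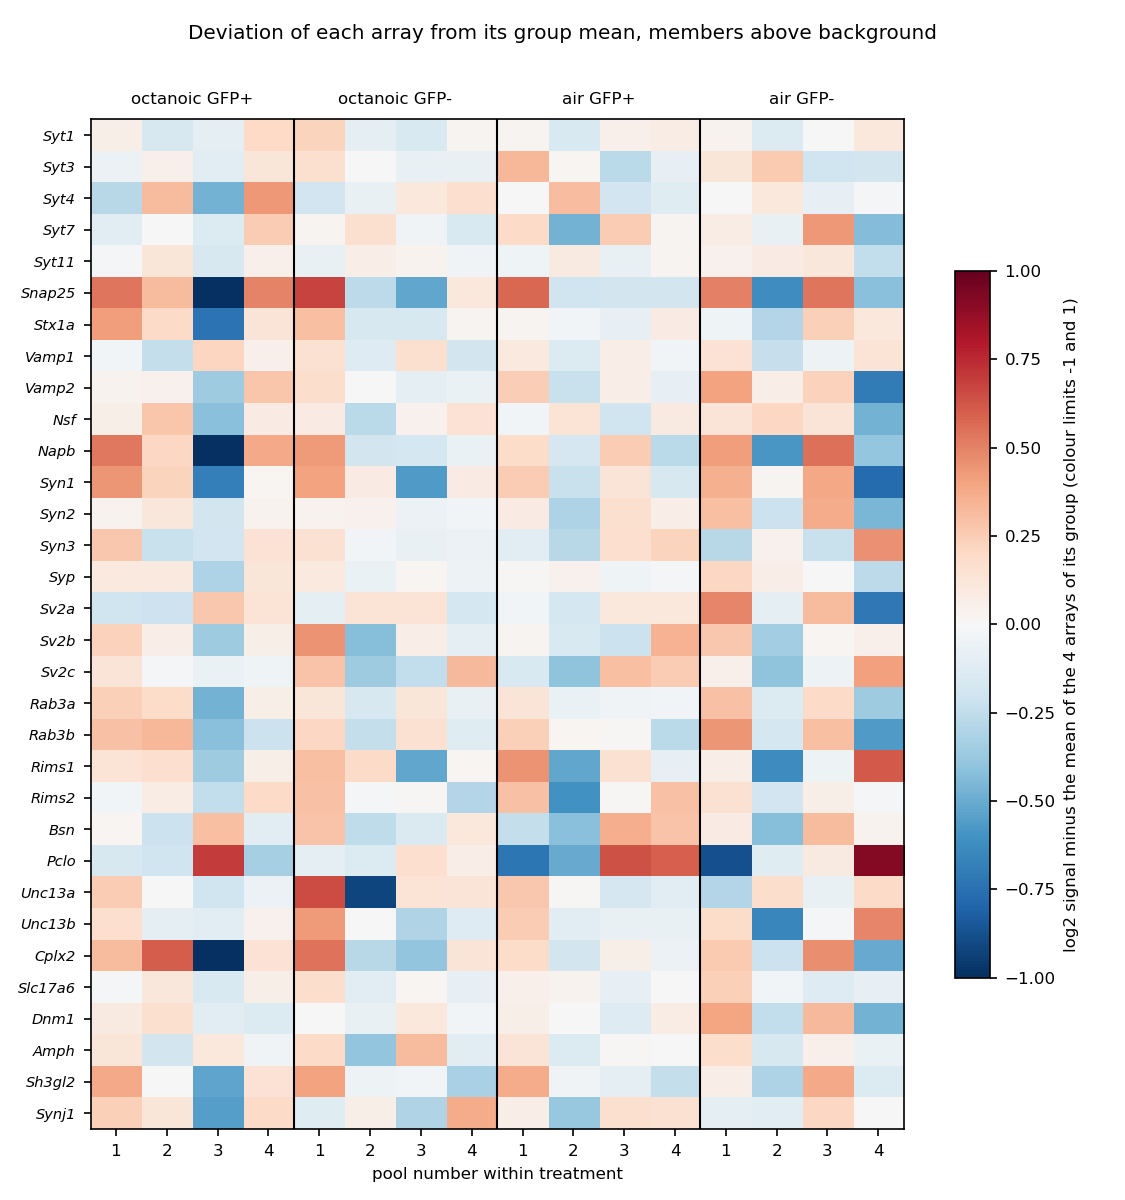
Deviation of each array from the mean of its group, in log2, for the 32 members above the background by more than their SD in every group, with colours limited to -1 and 1. The GFP+ column of odor pool 3 is blue for most members, and Pclo, Bsn, Sv2a, Vamp1 and Amph lie above their group mean there.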

How the data were processed

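RNA of 16 sorted samples was hybridized to Clariom S arrays. Each array has 1 deposited log2 signal for each probe set, and the authors used Affymetrix Expression Console to make it, per the submitters' processing notes. Its version, the background step and the summary method are not given in the sources used here. That the scale is log2 follows from the range of the values, 2.13 to 19.54. Of 28846 probe sets 6640 are controls, 19572 carry 1 gene symbol and 2634 no name. For genes with several probe sets only the brightest was used, so 67 were left out and 19505 genes remained. Values were used as deposited, and the number of arrays limits the precision.

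Two-sided tests were made with limma 3.58.1 (lmFit, then eBayes) under R 4.3.3. Within-pool differences between GFP+ and GFP- were tested against 0 for each treatment and between treatments, in 1 fit of 8 pools, and octanoic acid was set against clean air within GFP+ and within GFP- arrays. The adjustment was that of Benjamini and Hochberg, over all genes, with a limit of 0.05. The procedure was run on simulated arrays with independent noise, without pool effects and without an array that stands apart. That run does not bear on these features of the data. The members and lists were chosen with earlier results of these data known. Per-array values are given for members that passed and for their closest paralogs, and for the 3 smallest p where none passed. From the wider list the 5 largest rises and falls past the limit are named for each treatment, leaving out genes with both samples at the background. Pools are separate groups of mice, so the tests set each difference against a spread between pools. That spread was estimated from both treatments together and moderated across genes by eBayes. The SD over 4 pools printed beside a p value is therefore not the spread used in its test.

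The labels number both odor and vehicle pools, without a stated link. Same-numbered pools had correlated deviations of 0.179, 0.11, 0.237 and 0.1 in the within-pool differences. The values were 0.371, 0.1, 0.219 and 0.138 among GFP+ arrays, and among GFP- arrays 0.408, 0.1, -0.0986 and 0.153. Promoter windows come from a RefSeq table for GRCm38.p6, matched by symbol.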

Additional observations from a re-analysis of the deposited data

Results flagged for a closer look

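Within groups of 4 pools, 12 of 202 sets of values (5.94%) held 1 pool far from the other 3. Chance alone flags about 1 in 20. On the GFP+ array of odor pool 3 Snap25 (14.46), Syp (17.16) and Synj1 (11.59) lay far below the other odor pools and Pclo (13.59) far above them. Among the within-pool differences with octanoic acid Syt7 stood apart at 0.27 in pool 4, Syt11 at -0.10 in pool 3 and Unc13a at 1.35 in pool 2. With clean air Vamp2 stood apart at 0.99 in pool 4 and Slc17a6 at 0.21 in pool 1. On single vehicle arrays Snap25 (16.55) and Unc13b (9.01) lay far above the other GFP+ arrays in pool 1, and Nsf (12.56) far below the other GFP- arrays in pool 4.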

How the results depend on the processing

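With octanoic acid the 4 higher members became 24 with array medians set equal, 12 with quantile normalization, 2 with mature neuron markers set equal, 7 with genes having a group mean above the background only, 2 with no replicate block (arrays not paired by pool), and 2 to 4 with 1 pool left out. The 0 lower members became 2 with the markers set equal and 0 to 1 with 1 pool left out, the 1 being Rab3c, without odor pool 2. With clean air the 10 higher members became 23 with array medians and 5 with markers set equal, 8 with no replicate block, and 6 to 10 with 1 pool left out; the 0 lower members became 1 with markers set equal. Of all genes 1221 were higher with octanoic acid as deposited, 7791 with array medians set equal, 2587 with quantile normalization and 516 with markers set equal. They were 975 with no replicate block and 621 to 1310 with 1 pool left out. The filter on group means left 12487 genes, of which 1102 were higher. Clean air gave 1138 as deposited, 6082 with array medians and 563 with markers set equal, and 891 with no replicate block. The cause of these changes in the counts was not tested. Quantile normalization moved the median of all genes to 0.15 with octanoic acid and 0.13 with clean air. Calls held in all 18 alternatives for Syt4 and Syn2 with both treatments and for Syn1 and Bsn with clean air, in 17 for Sv2b, 16 for Sv2c, 13 for Dnm1, 11 for Rims1 with each treatment, 9 for Nsf, 8 for Cplx2 and 5 for Syn3; no difference changed sign. In the 3 comparisons of octanoic acid with clean air the members called stayed at 0 under every alternative run. A replicate block pairing same-numbered odor and vehicle pools also gave 0 there, with smallest adjusted p over all genes of 0.781, 0.826 and 0.915. Signal near the negative controls limits Rims1, Bsn and Cplx2, which lay under their 95th percentile.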
